A study of Mus musculus with 20 samples.

Results

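Genes of the collagens and the extracellular matrix were examined in hearts of control mice and of mice with iron-deficiency anemia (IDA). They were chosen by name from the deposited count table. All 44 genes whose symbol is that of a collagen chain were taken, with 18 other matrix genes, which gave 62 of 23420 genes. The hearts came from 10 control and 10 IDA mice, all wild type C57BL/6 males aged 9 weeks, which had eaten a control or an iron-deficient diet for 6 weeks from the age of 3 weeks. The labels give the iron of the deficient diet as below 2 ppm in one field and above it in another. Each library was RNA of bulk tissue from 1 heart, so that fewer cells of a type and less RNA per cell cannot be told apart. The study's results speak of whole hearts, while its methods describe RNA from a limited amount of crushed heart tissue. The study's methods say that a sample of each group was dropped as contaminated, without naming it. All 20 are included here, so that 1 heart of each group may be a contaminated one.

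Collagens are triple helices of 3 alpha chains. Fibrillar collagens of types I, III and V form the fibres that surround the muscle bundles of the heart, and are made chiefly by fibroblasts. Type IV collagen forms the sheet of the basement membrane around each cardiomyocyte and capillary, and the beaded filaments of type VI link that sheet to the fibres outside it. Prolyl and lysyl hydroxylases, which use iron and oxygen, modify the chains before they fold, and lysyl oxidases cross-link them after secretion. Metalloproteinases cut the finished matrix, and their tissue inhibitors (TIMPs) restrain them.

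Between 6797180 and 8960688 read pairs per control heart and between 6682177 and 7833916 per IDA heart were counted on genes. The members took between 0.64% and 0.88% of them (mean 0.711% in control and 0.74% in IDA hearts). Levels are given in CPM (the read pairs of a gene relative to the scaled size of the library), and log2 fold changes of IDA over control with their standard error (SE) and the adjusted p of edgeR's quasi-likelihood test over 13590 tested genes. One feature of the libraries touches most members. In each heart the deviation of all tested genes from their mean followed exonic length, with a slope of log2 CPM per doubling of length between 0.02 and 0.20 in the 10 control hearts and between -0.25 and -0.03 in the 10 IDA hearts, so that this trend and the diet cannot be told apart. The median exonic length was 5193 bp among the tested members and 2900 bp among all tested genes. Every member is therefore given in 2 fits. The first tests the counts as deposited, and the second first removes each heart's smooth trend on exonic length, so that a gene is compared with genes of its own length. The IDA hearts 3, 4 and 5 also stood apart from the other 7 on the second principal component of all tested genes (9.56% of the variance), and the columns carry library numbers in a lower run (5 control and 7 IDA hearts) and a higher run (5 control and 3 IDA hearts). What these numbers stand for is not stated.

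Of the 62 genes, 52 reached the level for testing (at least 1 CPM in at least 10 hearts). In the counts as deposited, 11 were higher in IDA hearts, against 35.0% of all tested genes, and 9 were lower, against 32.5%. With the gene length correction, 26 were higher, against 31.5% of all tested genes, and 6 were lower, against 23.5%. These shares are also the background of the counts by group and list below in the same fits. The median log2 fold change of the 52 genes was 0.00 in the first fit and 0.30 in the second, beside 0.02 and 0.04 for all tested genes. The calls of 10 genes were higher in both fits, namely *Col1a1*, *Col5a3*, *Col6a2*, *Col16a1*, *Col26a1*, *Sparc*, *Eln*, *Loxl1*, *Mmp2* and *Mmp14*. Those of 5 genes were lower in both, namely *Col4a3*, *Col4a5*, *Col6a6*, *Col28a1* and *Timp3*. A further 14 were higher with the correction alone, 2 (*Col6a3* and *Fbn1*) went from lower to higher, and 17 passed in neither fit. When GC content was corrected together with length, 19 members were higher, against 27.3% of all tested genes, and 4 lower, against 20.1%. Of the genes called alike in both fits, *Col1a1*, *Col5a3*, *Col6a2*, *Col16a1*, *Eln*, *Mmp2*, *Col4a5*, *Col6a6* and *Timp3* then passed in the same direction, and *Col26a1*, *Sparc*, *Loxl1*, *Mmp14*, *Col4a3* and *Col28a1* did not pass. In 0 members did every IDA heart lie above every control heart, which held for 4.97% of all tested genes, and in 0 did every IDA heart lie below, which held for 6.28%.

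**Figure D1:**
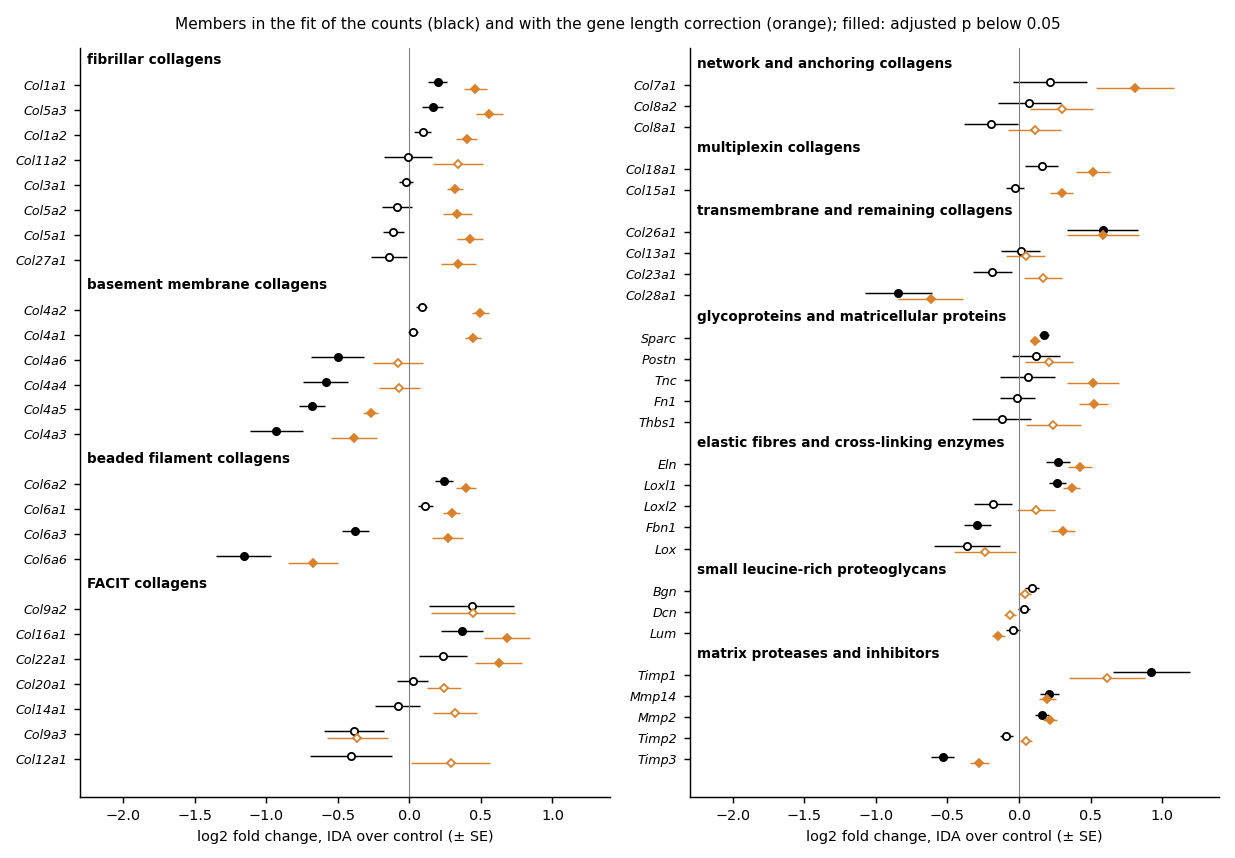
Log2 fold change (± SE) of each of the 52 tested members, IDA over control, in the counts as deposited (black circles) and with the gene length correction (orange diamonds). Filled symbols have an edgeR adjusted p below 0.05. The corrected values lie to the right of the others in most collagens, and *Col4a3*, *Col4a5*, *Col6a6*, *Col28a1* and *Timp3* stay filled and to the left of 0 in both.

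**Figure D2:**
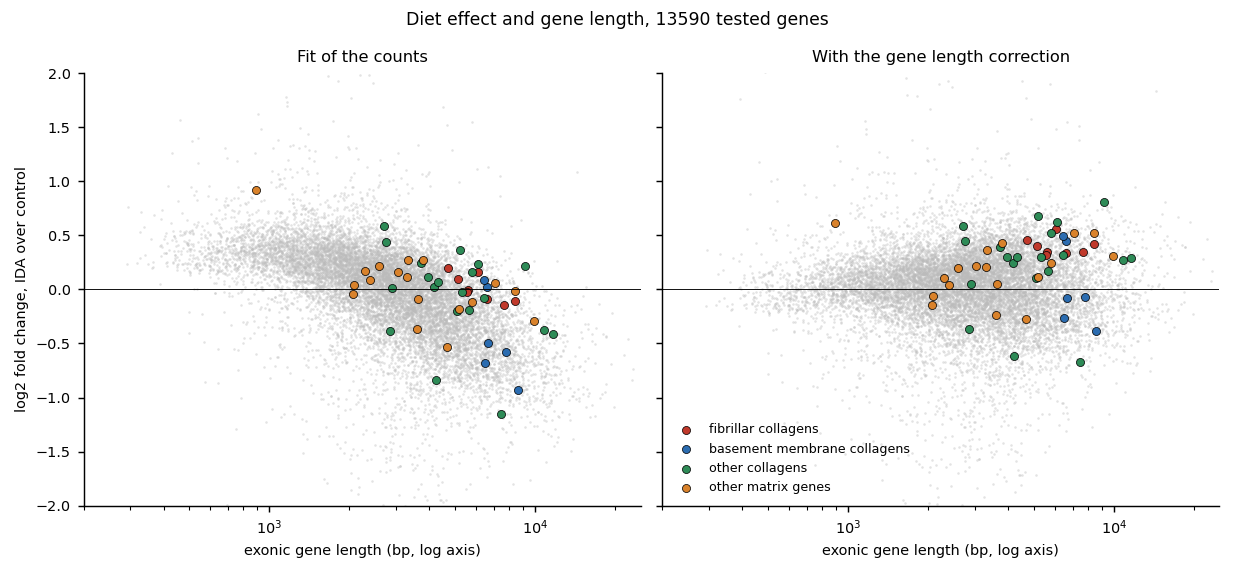
Log2 fold change of IDA over control against exonic length in bp (log axis) for all tested genes (grey) and for the members (coloured by group), in the counts as deposited (left) and with the gene length correction (right). Grey points fall with length on the left and lie around 0 on the right. The vertical axis ends at 2 and -2 and the length axis is limited too, which together leave 51 genes outside on the left and 46 on the right.

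Among the fibrillar collagens, the major chains differed little in CPM between the diets. Of the 8 tested chains, *Col1a1* and *Col5a3* were higher in IDA hearts and 0 were lower in the counts as deposited (median log2 fold change -0.01), against 35.0% and 32.5% of all tested genes. With the gene length correction 7 were higher (median 0.37), against 31.5% of all tested genes. *Col3a1*, the chain of the thin and extensible type III fibres (chromosome 1, 45311538 to 45349706, mm10), had the highest level per kilobase of the group. It lay between 398 and 533 CPM in control hearts (median 432) and between 360.3 and 472 CPM in IDA hearts (median 442), and the ranges largely overlapped. The log2 fold change of *Col3a1* was -0.02 (SE 0.05, edgeR adjusted p = 0.727), and 0.32 (SE 0.06, adjusted p = 8.95e-05) with the correction.

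*Col1a1*, which supplies a pair of the chains of each type I helix (chromosome 11, 94936270 to 94951856), lay between 237.5 and 350.3 CPM in control hearts (median 282) and between 241.5 and 373 CPM in IDA hearts (median 331). The ranges overlapped, but 9 of 10 IDA hearts were above the control mean. *Col1a1* had a log2 fold change of 0.20 (SE 0.07, edgeR adjusted p = 0.0138), and 0.46 (SE 0.08, adjusted p = 4.07e-05) with the gene length correction. *Col1a2*, the remaining chain of type I, lay between 279 and 368 CPM in control hearts (median 301) and between 265 and 387 CPM in IDA hearts (median 330.5). With a log2 fold change of 0.09 (SE 0.06, adjusted p = 0.152) it did not pass in the counts as deposited, and with the correction the value was 0.40 (SE 0.07, adjusted p = 6.95e-05). Per kilobase of exon the mean levels of *Col1a1*, *Col1a2* and *Col3a1* were 60.5, 60.1 and 79.2 CPM per kb in control hearts and 69.3, 64.2 and 78.1 CPM per kb in IDA hearts.

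Type V collagen is a minor partner that nucleates type I fibrils. Its least common chain, *Col5a3* (chromosome 9, 20770050 to 20815034), lay between 104 and 131 CPM in control hearts (median 119.5) and between 100.8 and 157 CPM in IDA hearts (median 128.5). The IDA hearts spread more widely, and 7 of 10 were above the control mean. The log2 fold change was 0.16 (SE 0.07, edgeR adjusted p = 0.0463) and passed in 33 of the 100 fits that left out a heart of each diet, and was 0.56 (SE 0.09, adjusted p = 3.37e-05) with the correction. *Col5a1* and *Col5a2* had log2 fold changes of -0.11 and -0.09 that did not pass (adjusted p = 0.176 and 0.474), and both were higher with the correction, by 0.42 and 0.34. *Col27a1* moved from -0.14 (adjusted p = 0.334) to 0.34 (adjusted p = 0.0196). *Col11a2*, at a mean of 8.46 CPM in control and 8.41 CPM in IDA hearts, passed in neither fit. The cartilage chains *Col2a1* and *Col11a1*, and *Col24a1*, were below the level for testing, with 0 to 11, 1 to 17 and 0 to 4 read pairs per heart.

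**Figure D3:**
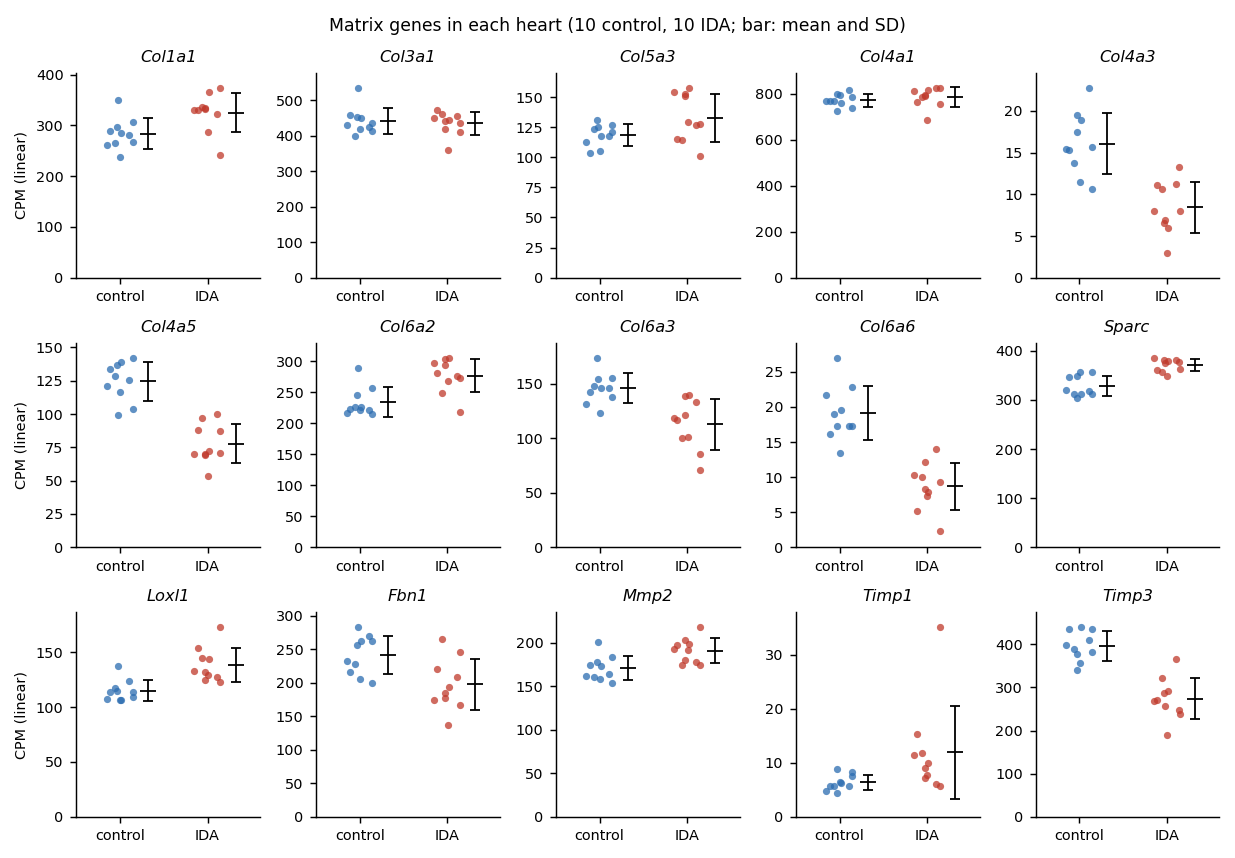
CPM of 15 matrix genes in each of 10 control (blue) and 10 IDA (red) hearts on linear axes from 0, with the mean and SD of each diet as a black bar. *Col4a3*, *Col4a5*, *Col6a6* and *Timp3* lie lower in most IDA hearts, *Sparc*, *Loxl1* and *Mmp2* slightly higher, and 1 IDA heart lies far above the others in *Timp1*.

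The 6 chains of type IV collagen divided, in the counts as deposited, into a major pair that did not pass the test and 4 minor chains that were lower in IDA hearts. *Col4a1* and *Col4a2*, which form the network found in all basement membranes, are neighbours on chromosome 8 (11198423 to 11312826 and 11312829 to 11449287). Per kilobase of exon they stood at 117 and 105 CPM in control hearts and at 119 and 111 CPM in IDA hearts, above all fibrillar chains. *Col4a1* lay between 725 and 819 CPM in control hearts (median 769) and between 685 and 824 CPM in IDA hearts (median 793). The lowest IDA value came from IDA heart 1, and the other 9 were at 755 CPM or above. *Col4a2* lay between 630.3 and 727 CPM in control hearts (median 678) and between 611 and 759.5 CPM in IDA hearts (median 728). Their log2 fold changes were 0.02 (SE 0.04, edgeR adjusted p = 0.566) and 0.09 (SE 0.04, adjusted p = 0.0595). With the gene length correction both were higher, by 0.45 (SE 0.06, adjusted p = 2.39e-06) and 0.49 (SE 0.06, adjusted p = 1.3e-06).

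The minor chains *Col4a3*, *Col4a4* and *Col4a5* form the network known from the filtration barrier of the kidney, and *Col4a5* with *Col4a6* the network of smooth muscle and some epithelial basement membranes. *Col4a5* (chromosome X, 141475419 to 141689235) was the most abundant of them. It lay between 99.3 and 142 CPM in control hearts (median 127) and between 53.7 and 100.4 CPM in IDA hearts (median 71.6), so that the groups met only at their edges and all 10 IDA hearts were below the control mean. For *Col4a5* the log2 fold change was -0.68 (SE 0.09, edgeR adjusted p = 1.72e-06), and -0.27 (SE 0.05, adjusted p = 0.000204) with the correction. *Col4a3* (chromosome 1, 82586921 to 82722059) lay between 10.6 and 22.7 CPM in control hearts (median 15.6) and between 2.91 and 13.2 CPM in IDA hearts (median 7.96). All 10 IDA hearts were again below the control mean, with a log2 fold change of -0.93 (SE 0.19, adjusted p = 0.000147), and -0.39 (SE 0.16, adjusted p = 0.048) with the correction. With length and GC corrected, *Col4a3* was at -0.28 (adjusted p = 0.167). Its neighbour *Col4a4* fell from a median of 22.6 to 15.4 CPM (log2 fold change -0.58, SE 0.16, adjusted p = 0.00225) and *Col4a6* from 9.31 to 6.32 CPM (log2 fold change -0.50, SE 0.18, adjusted p = 0.0208). With the correction these last values were -0.07 and -0.08, and did not pass (adjusted p = 0.706 and 0.723).

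The type IV genes are arranged as head-to-head pairs that start from shared promoters. The annotated starts lay 2 bases apart in *Col4a1* and *Col4a2*, 71 bases in *Col4a4* and *Col4a3*, and 1342 bases in *Col4a6* and *Col4a5*. The stretches in front of the 4 minor chains are printed here because these chains moved together in the counts as deposited. They are from RefSeq promoters of build GRCm38.p6, from 5′ to 3′, with GC boxes (GGGCGG on either strand) in capitals. The first is the whole stretch between *Col4a4* and *Col4a3* (chr1:82586850-82586920, minus strand, which is the strand of *Col4a4*), with 69.0% G or C and 0 GC boxes. The others are the 150 bases in front of *Col4a5* (chrX:141475269-141475418, plus strand, 59.3% G or C) and of *Col4a6* (chrX:141474077-141474226, minus strand, 52.0% G or C), each with 1 GC box.
Between *Col4a4* and *Col4a3*: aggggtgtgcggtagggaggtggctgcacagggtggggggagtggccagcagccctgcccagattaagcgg
Upstream of *Col4a5*: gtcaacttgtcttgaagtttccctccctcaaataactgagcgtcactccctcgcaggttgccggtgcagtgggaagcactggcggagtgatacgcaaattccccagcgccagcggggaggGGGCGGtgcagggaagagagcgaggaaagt
Upstream of *Col4a6*: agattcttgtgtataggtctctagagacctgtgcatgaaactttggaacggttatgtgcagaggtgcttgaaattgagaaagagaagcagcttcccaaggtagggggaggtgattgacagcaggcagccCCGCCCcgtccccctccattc

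None of the 3 stretches held the hypoxia response element core ACGTG or the TATA box TATAAA on either strand. Over the 250 bases in front of each start, RefSeq had 49 promoters for 44 of the 62 members. A GC box was found in 30 of the 49 (61.2%), beside 32.7% of all 32851 promoters. The core ACGTG was in 7 (14.3%, beside 16.6% of all promoters) and TATAAA in 8 (16.3%, beside 12.4%). None of the 3 motifs is contained in another, and a match describes letters and not a bound site.

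Other basement membrane genes were listed apart from the members. Of 14 tested laminin, nidogen, perlecan and agrin genes, 1 was higher and 8 were lower in the counts as deposited (median log2 fold change -0.26), against 35.0% and 32.5% of all tested genes. With the gene length correction 7 were higher and 1 lower (median 0.24), against 31.5% and 23.5%. *Nid1*, nidogen 1, which bridges laminin and type IV collagen, lay between 267 and 375 CPM in control hearts and between 143 and 255.6 CPM in IDA hearts, and the groups did not overlap. *Nid1* had a log2 fold change of -0.78 (SE 0.08, edgeR adjusted p = 2.15e-07), and -0.40 (adjusted p = 1e-06) with the correction. The laminin chain *Lamb3* was higher, by 0.39 (SE 0.09, adjusted p = 0.000806), and by 0.58 (adjusted p = 3.65e-05) with the correction.

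Type VI collagen showed opposite changes among its chains. *Col6a2* (chromosome 10, 76595756 to 76623404) lay between 214 and 289.7 CPM in control hearts (median 224) and between 218 and 305 CPM in IDA hearts (median 278). The ranges overlapped, while 9 of 10 IDA hearts exceeded the control mean, with a log2 fold change of 0.24 (SE 0.06, edgeR adjusted p = 0.00122), and 0.40 (SE 0.07, adjusted p = 7.14e-05) with the gene length correction. *Col6a1*, which lies beside it (76708792 to 76726044), lay between 214 and 270.0 CPM in control hearts (median 225) and between 203 and 278 CPM in IDA hearts (median 255.9). Its log2 fold change of 0.11 (SE 0.05, adjusted p = 0.058) did not pass, but was 0.14 (adjusted p = 0.0154) without control heart 6, the highest of its group, and 0.30 (SE 0.06, adjusted p = 0.000305) with the correction in all hearts.

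*Col6a3*, the long chain of the common type VI helix (chromosome 1, 90766860 to 90843971), has 10841 bp of exon, against 3976 bp in *Col6a1*. It lay between 124 and 174 CPM in control hearts (median 146) and between 70.5 and 139.8 CPM in IDA hearts (median 118). All 10 IDA hearts were below the control mean, with a log2 fold change of -0.38 (SE 0.10, edgeR adjusted p = 0.00158). The direction turned with the correction for gene length, to 0.27 (SE 0.11, adjusted p = 0.0379). *Col6a6* (chromosome 9, 105689417 to 105828085), a chain that can take the place of *Col6a3*, had the largest decrease of all tested members. It lay between 13.5 and 27.0 CPM in control hearts (median 18.2) and between 2.37 and 14.01 CPM in IDA hearts (median 8.79), and only the highest IDA value reached into the control range. This was a log2 fold change of -1.16 (SE 0.19, adjusted p = 1.59e-05), and -0.68 (SE 0.17, adjusted p = 0.00239) with the correction. *Col6a4* and *Col6a5* were below the level for testing, with 0 to 1 and 0 to 4 read pairs per heart.

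The FACIT collagens sit on the surface of fibrils and interrupt their helix. Of 7 tested, *Col16a1* passed in the counts as deposited (1 higher, 0 lower, median log2 fold change 0.03), against 35.0% higher and 32.5% lower of all tested genes. *Col16a1* (chromosome 4, 130047840 to 130099277) lay between 27.0 and 52.5 CPM in control hearts (median 32.9) and between 27.3 and 82.0 CPM in IDA hearts (median 41.3). The highest values were from 1 heart of each diet, control heart 6 and IDA heart 4. The *Col16a1* log2 fold change was 0.37 (SE 0.15, edgeR adjusted p = 0.0309), and 0.68 (SE 0.16, adjusted p = 0.00102) with the gene length correction. It was 0.22 (adjusted p = 0.0798) without IDA heart 4 and 0.13 (adjusted p = 0.342) without IDA hearts 3, 4 and 5. *Col14a1*, the most abundant of the group, lay between 43.4 and 93.8 CPM in control hearts (median 56.5) and between 36.1 and 83.8 CPM in IDA hearts (median 50.5), with a log2 fold change of -0.08 (SE 0.15, adjusted p = 0.653). Of the others, *Col22a1* was higher with the correction alone, by 0.62 (adjusted p = 0.00249), and *Col12a1*, *Col20a1*, *Col9a2* and *Col9a3* passed in neither fit, with values from -0.41 (*Col12a1*) to 0.44 (*Col9a2*) in the counts as deposited. *Col9a2* was 0.02 (adjusted p = 0.917) without IDA heart 4, and *Col9a3* was among the members lower with length and GC corrected. *Col12a1* was -0.75 (adjusted p = 0.00661) without IDA heart 4. Reads of *Col9a3* and its neighbour *Tcfl5* cannot be told apart over 229 bases of shared exon. *Col9a1* and *Col19a1* had at most 5 and 4 read pairs per heart and were not tested.

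The multiplexins *Col15a1* and *Col18a1* join basement membranes to the tissue around them, and *Col18a1* is the source of endostatin. *Col15a1* lay between 244.3 and 336 CPM in control hearts (median 262) and between 217 and 299.8 CPM in IDA hearts (median 277), and *Col18a1* between 51.9 and 85.4 CPM (median 65.8) and between 47.1 and 94.7 CPM (median 71.7). Neither passed in the counts as deposited, with log2 fold changes of -0.03 (SE 0.06, edgeR adjusted p = 0.711) and 0.16 (SE 0.12, adjusted p = 0.228). Both were higher with the correction, by 0.30 and 0.52 (adjusted p = 0.00317 and 0.000719). Among network and anchoring collagens, *Col8a1*, a short-chain collagen of vessels and valves, lay between 55.0 and 98.7 CPM in control hearts (median 72.7) and between 38.1 and 150.3 CPM in IDA hearts (median 55.7). The highest IDA value was that of IDA heart 4, and 8 of 10 IDA hearts were below the control mean. The log2 fold change was -0.20 (SE 0.19, adjusted p = 0.363), and -0.43 (adjusted p = 0.00513) without that heart. *Col8a2* lay between 3.07 and 9.10 CPM in control hearts and between 3.98 and 13.5 CPM in IDA hearts and passed in neither fit. *Col7a1*, the anchoring fibril collagen, shares 36 bases with *Mir711* and was higher with the correction alone (0.81, adjusted p = 0.014). *Col10a1* had 0 to 7 read pairs per heart.

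Of the 4 transmembrane and remaining collagens tested, *Col26a1* was higher and *Col28a1* lower in both fits. *Col28a1*, a chain known from the sheaths of peripheral nerves (chromosome 6, 7997808 to 8192617), lay between 2.24 and 6.84 CPM in control hearts (median 3.73) and between 1.12 and 3.37 CPM in IDA hearts (median 2.30). All 10 IDA hearts were below the control mean, with a log2 fold change of -0.84 (SE 0.23, edgeR adjusted p = 0.00276), and -0.62 (SE 0.23, adjusted p = 0.0245) with the gene length correction. With length and GC corrected it was -0.53 (adjusted p = 0.0567). *Col26a1* lay between 0.491 and 1.5 CPM in control hearts (median 0.825) and between 0.467 and 2.38 CPM in IDA hearts (median 1.35), a few read pairs per heart. Its log2 fold change was 0.58 (SE 0.25, adjusted p = 0.0394), and it passed in 42 of the 100 fits that left out a heart of each diet. Corrected for length and GC, the value was 0.36 (adjusted p = 0.227). *Col13a1* and *Col23a1*, at mean levels of 4.64 and 8.87 CPM in control hearts, passed in neither fit. *Col17a1* and *Col25a1* were below the level for testing, with means of 1.8 and 10.5 read pairs in control hearts and 1.5 and 4.8 in IDA hearts.

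Glycoproteins and matricellular proteins organise the matrix and signal to cells. *Sparc*, a collagen-binding protein that is needed for fibril assembly (chromosome 11, 55394501 to 55420080), was the most abundant of the 5. It lay between 305 and 357 CPM in control hearts (median 319) and between 348 and 386 CPM in IDA hearts (median 376), and all 10 IDA hearts were above the control mean. The log2 fold change was 0.17 (SE 0.04, edgeR adjusted p = 0.000205), and 0.11 (SE 0.04, adjusted p = 0.0123) with the gene length correction. It was 0.02 (adjusted p = 0.69) when length and GC were both corrected. *Sparc*, *Dcn* and *Bgn* had a mean of 1.13, 1.10 and 1.01 read pairs per exonic base, at which the removal of duplicate reads can compress differences. *Fn1*, fibronectin, lay between 161 and 232 CPM in control hearts (median 203) and between 119.7 and 282 CPM in IDA hearts (median 181). The IDA hearts reached beyond the control range on both sides, with an SD of 54.6 against 23.6 CPM. Its log2 fold change was -0.01 (SE 0.12, adjusted p = 0.932), and 0.52 (SE 0.10, adjusted p = 0.000196) with the correction. *Tnc*, tenascin C, was also higher with the correction alone (0.52, adjusted p = 0.0189). *Postn*, periostin, a product of activated fibroblasts, and *Thbs1*, thrombospondin 1, passed in neither fit, with log2 fold changes of 0.12 (adjusted p = 0.544) and -0.12 (adjusted p = 0.613). *Postn* was at 333 CPM in IDA heart 4 and at 173 CPM or less in the other 9, and its log2 fold change was -0.10 (adjusted p = 0.393) without that heart.

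Elastic fibre and cross-linking genes held 2 of the increases and 1 gene that turned direction. *Eln*, elastin (chromosome 5, 134702596 to 134747254), lay between 115 and 189 CPM in control hearts (median 149) and between 137 and 227 CPM in IDA hearts (median 178). The ranges overlapped, and 9 of 10 IDA hearts exceeded the control mean. Its log2 fold change was 0.27 (SE 0.09, edgeR adjusted p = 0.0068), and 0.43 (SE 0.08, adjusted p = 0.000168) with the gene length correction. *Loxl1*, a lysyl oxidase that acts on elastin (chromosome 9, 58287723 to 58313212), lay between 106 and 138 CPM in control hearts (median 114) and between 123 and 173 CPM in IDA hearts (median 133). All 10 IDA hearts were above the control mean, with a log2 fold change of 0.27 (SE 0.06, adjusted p = 0.000404), and 0.37 (SE 0.06, adjusted p = 2.25e-05) with the correction. Length and GC together gave 0.12 (adjusted p = 0.0538) for *Loxl1*. *Fbn1*, fibrillin 1, the scaffold of the elastic fibre (chromosome 2, 125300594 to 125506438), has 9900 bp of exon. It lay between 199.5 and 283 CPM in control hearts (median 245) and between 136 and 265 CPM in IDA hearts (median 189), with 8 of 10 IDA hearts below the control mean. The log2 fold change was -0.29 (SE 0.10, adjusted p = 0.00957) in the counts as deposited and 0.31 (SE 0.09, adjusted p = 0.00444) with the correction. *Lox* and *Loxl2*, with log2 fold changes of -0.36 (SE 0.23) and -0.18 (SE 0.13), passed in neither fit (adjusted p = 0.163 and 0.225). *Lox* was -0.52 (adjusted p = 0.0401) without IDA heart 4.

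The small leucine-rich proteoglycans coat collagen fibrils and set their width. Per kilobase of exon, *Dcn* and *Bgn* were, with *Sparc*, the most abundant members, at 146, 132 and 143 CPM per kb in control hearts and 149.6, 139.9 and 161 CPM per kb in IDA hearts. *Bgn*, biglycan, lay between 291 and 353 CPM in control hearts (median 307) and between 282 and 383 CPM in IDA hearts (median 337), and *Dcn*, decorin, between 269.8 and 340.1 CPM (median 298) and between 294 and 334 CPM (median 312). Their log2 fold changes were 0.09 (SE 0.05, edgeR adjusted p = 0.093) and 0.04 (SE 0.04, adjusted p = 0.438), and 0 of the 3 genes passed in the counts as deposited. *Lum*, lumican, was lower with the gene length correction alone (-0.14, SE 0.05, adjusted p = 0.0113).

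In the counts as deposited both proteases and *Timp1* were higher, *Timp3* was lower and *Timp2* did not pass. *Mmp2*, gelatinase A (chromosome 8, 92827328 to 92853420), lay between 154 and 201 CPM in control hearts (median 169) and between 174 and 218 CPM in IDA hearts (median 192). *Mmp14*, the membrane protease that activates it (chromosome 14, 54431604 to 54441258), lay between 54.9 and 76.6 CPM (median 58.8) and between 60.8 and 84.6 CPM (median 67.4). In both genes all 10 IDA hearts were above the control mean, with log2 fold changes of 0.16 (SE 0.05, edgeR adjusted p = 0.00725) and 0.21 (SE 0.07, adjusted p = 0.00613), and of 0.22 and 0.20 with the gene length correction (adjusted p = 0.00112 and 0.00753). *Mmp14* was at -0.01 (adjusted p = 0.87) with length and GC corrected, and at 0.10 (adjusted p = 0.142) without IDA hearts 3, 4 and 5.

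*Timp3*, the inhibitor that stays bound in the matrix (chromosome 10, 86300412 to 86349505), was lower in both fits. It lay between 340.0 and 439 CPM in control hearts (median 394) and between 190.1 and 366 CPM in IDA hearts (median 270.0), and all 10 IDA hearts were below the control mean. *Timp3* had a log2 fold change of -0.53 (SE 0.08, edgeR adjusted p = 6.29e-06), and -0.28 (SE 0.06, adjusted p = 0.000945) with the correction. *Timp1* (chromosome X, 20870166 to 20874737), a secreted and inducible inhibitor, is the shortest member with 890 bp of exon. It lay between 4.39 and 8.91 CPM in control hearts (median 5.93) and between 5.75 and 35.1 CPM in IDA hearts (median 9.53). The highest value was that of IDA heart 4, and the next was 15.3 CPM. Its log2 fold change of 0.92 (SE 0.27, adjusted p = 0.00427) was the largest increase of all tested members, was 0.57 (adjusted p = 0.00617) without IDA heart 4, and did not pass with the correction (0.61, SE 0.26, adjusted p = 0.0521). *Timp2* lay between 229.6 and 269 CPM in control hearts (median 243.3) and between 204 and 265 CPM in IDA hearts (median 229), a difference within the spread between hearts (log2 fold change -0.09, SE 0.05, adjusted p = 0.1).

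Ratios of 2 members within a heart do not depend on library size. The 6 ratios chosen all differed between the diets in the counts as deposited (two-sided permutation tests with 100000 resamples, adjusted over the 6). The log2 ratio of *Col3a1* to *Col1a1* was 0.64 ± 0.08 in control and 0.42 ± 0.15 in IDA hearts (SD, n = 10 each), lower by a difference of -0.21 (permutation adjusted p = 0.00186), and still lower with the gene length correction (-0.14, permutation adjusted p = 0.0386). *Col4a1* to *Col4a2* was 0.20 ± 0.02 in control and 0.14 ± 0.03 in IDA hearts, and every IDA heart was below the control mean (difference -0.06, permutation adjusted p = 0.00016, and -0.05, 0.00276 with the correction). *Mmp2* to *Timp2* was -0.53 ± 0.09 in control and -0.28 ± 0.16 in IDA hearts, and 9 of 10 IDA hearts were above the control mean (difference 0.25, permutation adjusted p = 0.00136, and 0.17, 0.0148 with the correction). The other ratios passed in the counts as deposited alone. *Col6a3* to *Col6a1* fell from -0.67 ± 0.13 to -1.18 ± 0.26 without overlap (difference -0.51, permutation adjusted p = 6e-05), and the difference was -0.05 (adjusted permutation p = 0.629) with the correction. *Col5a1* to *Col1a1* likewise did not overlap (difference -0.31, permutation adjusted p = 6e-05) and was -0.03 (permutation adjusted p = 0.474) with the correction. *Col1a1* to *Col1a2* differed by 0.10 (permutation adjusted p = 0.00279), and by 0.06 (permutation adjusted p = 0.131) with the correction. In the run of higher library numbers (5 control and 3 IDA hearts) all 6 differences had the same sign, and exact permutation tests gave adjusted p between 0.0536 and 0.393. With 5 against 3 hearts the unadjusted p cannot go below 0.0179.

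**Figure D4:**
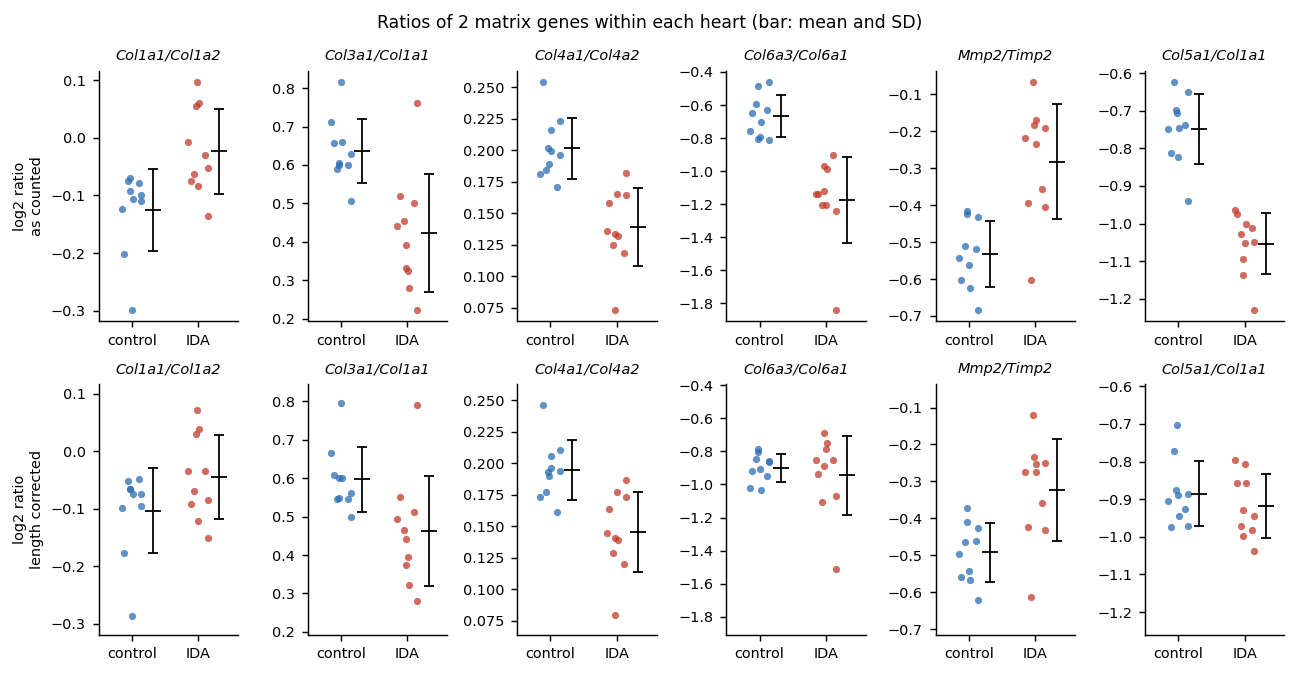
Log2 ratio of 2 matrix genes in each of 10 control (blue) and 10 IDA (red) hearts, as counted (top) and with the gene length correction (bottom), with mean and SD as black bars. *Col6a3* to *Col6a1* and *Col5a1* to *Col1a1* separate the diets in the top panels and overlap in the bottom panels, while *Col4a1* to *Col4a2* stays lower in IDA hearts.

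The IDA hearts 3, 4 and 5 stood above the other IDA hearts in part of the members. In 16 of the 52 tested members (30.8%) these 3 were all above the other 7 IDA hearts, which held for 661 of all 13590 tested genes (4.86%), and in 0 members were they all below, which held for 1280 of all tested genes (9.42%). As these hearts were picked from a component that the members share in, this is a description. *Col14a1* was at 77.6, 83.8 and 75.4 CPM in these hearts and at 36.1 to 53.4 CPM in the other 7. Without the 3 hearts, 5 members were higher, against 33.5% of all tested genes, and 20 lower, against 34.8%, in the counts as deposited, with a median log2 fold change of -0.09 (all tested genes 0.00). The calls of *Col16a1*, *Col1a1*, *Col26a1*, *Eln*, *Mmp14* and *Timp1* were then lost (log2 fold changes 0.13, 0.14, 0.56, 0.17, 0.10 and 0.35), and *Postn* (-0.25, edgeR adjusted p = 0.0133), *Fn1* (-0.28, adjusted p = 0.0105), *Thbs1* (-0.58, adjusted p = 0.00394) and *Lox* (-0.84, adjusted p = 0.000897) were among 11 members that became lower. With the gene length correction and without the 3 hearts, 22 were higher, against 33.1% of all tested genes, and 7 lower, against 22.9%. *Sparc*, *Loxl1*, *Mmp2* and *Col6a2* stayed higher, and *Col4a3*, *Col4a5*, *Col6a6* and *Timp3* lower, in both fits without these hearts.

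**Figure D5:**
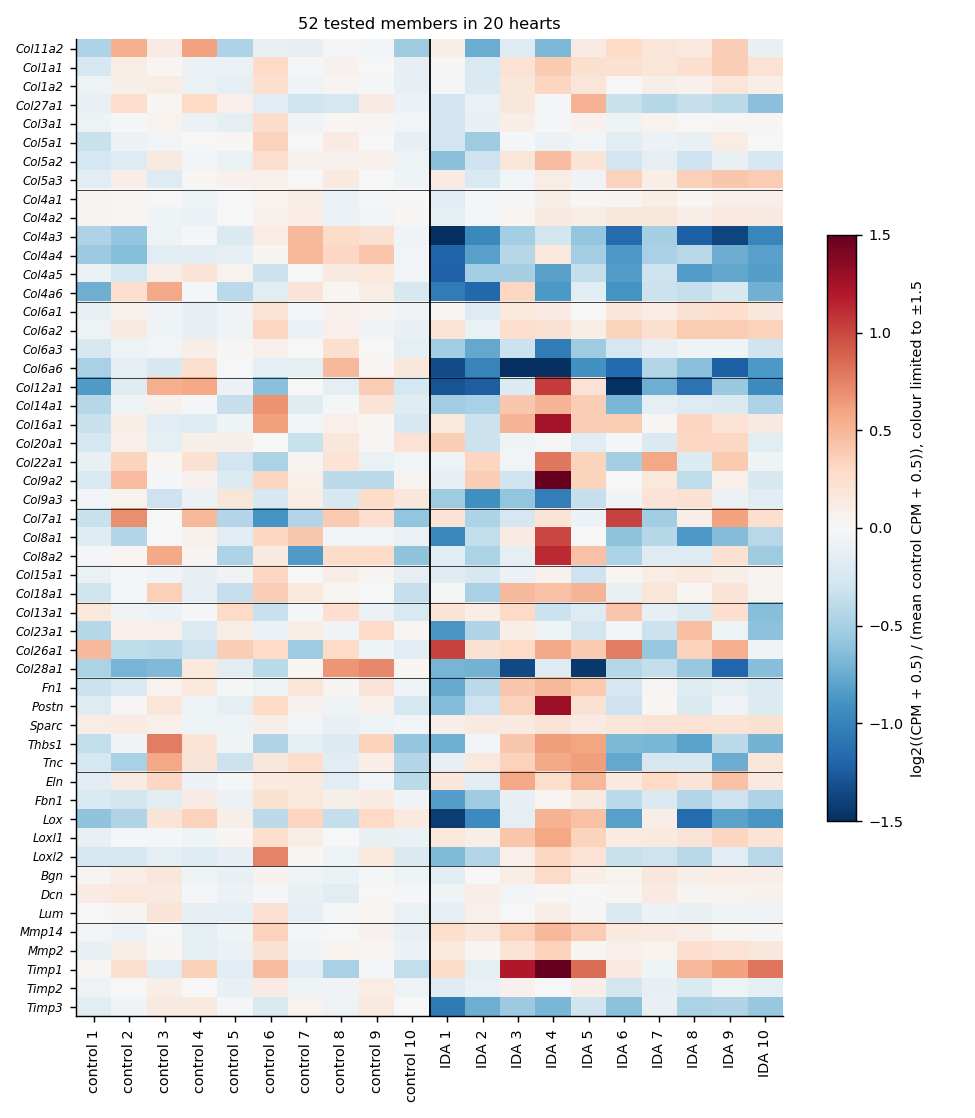
Heat map of the 52 tested members (one line each, groups divided by thin lines) in 10 control and 10 IDA hearts, as log2 of CPM + 0.5 over the mean control CPM + 0.5, with colours limited to ±1.5. IDA hearts 3, 4 and 5 are redder than the other IDA hearts in genes such as *Fn1*, *Thbs1*, *Tnc*, *Lox* and *Timp1*, and *Col4a3* to *Col4a6* and *Col6a6* are blue in most IDA hearts.

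Markers of cell types were summed in each heart. The summed CPM of 10 fibroblast markers lay between 1097 and 1288 in control hearts and between 1200 and 1342 in IDA hearts. It was made up largely of *Gsn* (mean 512 CPM in control hearts), and single markers went both ways, with 5 higher and 4 lower. *Pdgfra* (-0.71) and *Ddr2* (-0.74) were lower and *Meox1* (0.84) higher without overlap. With the gene length correction 3 fibroblast markers were higher and 2 lower (median 0.00). *Pdgfra*, *Ddr2* and *Meox1* were then at -0.28, -0.21 and 0.76. The sum of 7 myofibroblast markers, 6 of them tested, lay between 451 and 599 and between 518 and 783, highest in IDA heart 4. Mesothelial markers, of the surface layer of the heart, lay between 12.6 and 61.0 CPM in control hearts, at 103, 93.8 and 52.9 CPM in IDA hearts 3, 4 and 5, and between 8.73 and 36.9 CPM in the other IDA hearts. The sums of cartilage and valve markers (22.7 to 51.1 CPM in IDA and 17.7 to 63.4 CPM in control hearts) and the 10 endothelial markers (1781 to 2017 and 1851 to 2058 CPM) overlapped between the diets, as did pericyte and smooth muscle (1655 to 2282 and 2053 to 2334 CPM), leukocyte (499 to 654 and 540 to 627 CPM) and adipocyte markers (9.47 to 35.0 and 4.80 to 50.4 CPM). The 10 cardiomyocyte markers lay between 7096 and 10380 CPM in control and between 5988 and 9041 CPM in IDA hearts. Their sum held the very long genes *Ttn* (104320 bp of exon, mean 3155 CPM in control and 1822 CPM in IDA hearts) and *Ryr2* (16813 bp, 1772 and 1247 CPM). These 2 were lower in the counts as deposited (-0.79 and -0.51) and higher with the gene length correction (0.57 and 0.28). Of the 10, 3 were higher and 2 lower as deposited, and 4 and 5 with the correction. Short cardiomyocyte markers such as *Myl2* (633 bp, mean 176 CPM in control hearts) and *Tnni3* (824 bp, 203 CPM) had more read pairs per exonic base than *Sparc*. The removal of duplicate reads can compress differences in these markers too. Single endothelial markers differed although their sums overlapped (5 higher and 4 lower, with *Cldn5* higher by 0.80 and *Erg* lower by a log2 fold change of -0.65 without overlap). With the gene length correction 4 were higher and 2 lower, with *Cldn5* at 0.57 and *Erg* at -0.73. Of the pericyte and smooth muscle markers, 3 were higher and 4 lower in the counts as deposited, and 3 and 2 with the gene length correction. *Kcnj8* was higher without overlap (0.35). *Abcc9* (-0.72), *Notch3* (-0.585), *Rgs5* (-0.44) and *Myh11* (-0.30) were lower as deposited, with overlapping ranges. With the correction *Abcc9* (-0.24) and *Rgs5* (-0.59) stayed lower. *Notch3* (-0.08, edgeR adjusted p = 0.309) and *Myh11* (0.11, adjusted p = 0.343) then did not pass. Among the erythroid markers, the globin genes *Hba-a1*, *Hba-a2* and *Hbb-b2* were listed at 0, and the summed level was 115 to 216 CPM in control and 225 to 803 CPM in IDA hearts. With the mean of the erythroid markers as a covariate, 2 members stayed higher, against 24.6% of all tested genes, and 5 lower, against 24.7%. The SE of these members grew with this covariate. Among those that no longer passed, the log2 fold change was 0.20 (SE 0.12) for *Col1a1*, 0.20 (SE 0.09) for *Mmp2* and 0.38 (SE 0.26) for *Col16a1*. It went from 0.27 to 0.22 (SE 0.15) for *Eln* and from 0.27 to 0.19 (SE 0.10) for *Loxl1*. *Col9a2* went from 0.44 to -0.48 and *Col22a1* from 0.24 to -0.42, and neither passed with or without the covariate. Within the lower run of library numbers all 20 members called in the counts as deposited kept their sign, and within the higher run all but *Col5a3* (-0.03) did. The log2 fold changes in the lower and higher runs were -0.67 and -0.72 for *Col4a5*, -1.16 and -1.32 for *Col6a6*, -0.43 and -0.79 for *Timp3*, 0.23 and 0.07 for *Sparc* and 0.21 and 0.06 for *Col1a1*. In edgeR a difference in effect between the runs passed for 0 of the 52 tested members (smallest adjusted p = 0.759, for *Bgn*), against 28 of all 13590 tested genes. The unadjusted p was below 0.05 for 4 members, against 854 of all tested genes. The part of these cells and runs in the matrix results was not tested further.

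Enzymes, signals and receptors of collagen were listed apart from the members. Beside the laminin and nidogen genes above, they were 54 tested genes, of which 22 were higher and 22 lower in the counts as deposited and 26 and 11 with the gene length correction. Of all tested genes, 35.0% were higher and 32.5% lower in the counts as deposited, and 31.5% and 23.5% with the correction. Among 9 tested prolyl and lysyl hydroxylase genes, 6 were higher and 2 lower in each fit, and 5 of the 6 were higher in both. *P4ha2* passed only in the counts as deposited (0.17, edgeR adjusted p = 0.00605) and *Lepre1* only with the correction (0.18, adjusted p = 0.00212). *Plod3*, a lysyl hydroxylase that also adds sugars, lay between 79.4 and 98.3 CPM in control hearts and between 101.4 and 128 CPM in IDA hearts without overlap (log2 fold change 0.35, SE 0.05, edgeR adjusted p = 9.3e-07). *Plod2*, which hydroxylates the telopeptides, lay between 64.0 and 88.1 CPM in control and between 42.0 and 66.8 CPM in IDA hearts (-0.54, SE 0.09, adjusted p = 9.34e-06). After correction for length these values were 0.45 and -0.39. Of the 10 genes of folding and secretion, 5 were higher and 5 lower, and 5 and 4 with the correction. The cartilage-associated protein *Crtap*, part of a prolyl 3-hydroxylase complex, was higher (0.32, SE 0.05, adjusted p = 2.71e-06), and the transport coat gene *Sec24d* was lower (-0.65, SE 0.09, adjusted p = 1.74e-06). Their values with the correction were 0.15 and -0.49.

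Of 7 genes of procollagen processing, 2 were higher and 2 lower. *Pcolce*, which enhances the removal of the C-propeptide, lay between 96.7 and 128 CPM in control hearts and between 119 and 167 CPM in IDA hearts (log2 fold change 0.42, SE 0.06, edgeR adjusted p = 1.64e-06, and 0.22 with the correction). *Tll1*, a protease of the same step, was lower at a low level, with means of 1.75 and 0.834 CPM (-1.02, SE 0.29, adjusted p = 0.00298, and -0.74 with the correction). Among 20 genes of TGF-beta signalling, the main pathway known to induce collagens, 7 were higher and 9 lower, and 10 and 2 with the correction. The inhibitory *Smad6* was higher without overlap, between 23.7 and 35.4 CPM in control and between 41.4 and 73.1 CPM in IDA hearts (0.80, SE 0.10, adjusted p = 5.62e-07, and 0.85 with the correction). The receptor *Tgfbr1* was lower, between 48.3 and 79.4 CPM and between 30.0 and 52.1 CPM (-0.79, SE 0.11, adjusted p = 1.79e-06, and -0.44 with the correction). The genes higher in both fits also included the ligand *Tgfb1* (0.47, and 0.37 with the correction), *Ctgf* (0.33 and 0.28) and *Smad7* (0.555 and 0.79). *Tgfbr3* was lower in both (-0.65 and -0.27). Of 8 tested collagen receptors, 2 were higher and 4 lower, and 2 and 2 with the correction. *Ddr2*, the receptor kinase for fibrillar collagen, lay between 78.7 and 108 CPM in control and between 43.4 and 76.3 CPM in IDA hearts without overlap (-0.74, SE 0.08, adjusted p = 3.61e-07, and -0.21 with the correction). *Mrc2*, which takes up collagen fragments, was higher (0.31, SE 0.08, adjusted p = 0.00253, and 0.68 with the correction).

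The relation of the collagen level to the length trend was examined within each diet. Over the 10 control hearts, the mean log2 CPM of *Col1a1*, *Col1a2* and *Col3a1* had a Pearson r of -0.41 (permutation p = 0.243) and a Spearman rho of -0.24 (permutation p = 0.512) with the slope on length, and r was 0.44 without the 2 hearts farthest from the median slope. In the 10 IDA hearts, Pearson's r came to 0.22 (permutation p = 0.545), Spearman's rho to 0.09 (permutation p = 0.811), and r to -0.17 when 2 hearts were left out. For the short genes *Dcn* and *Lum*, the control hearts gave r = -0.63 (permutation p = 0.0597) with rho = -0.53 (permutation p = 0.122), whereas the IDA hearts gave r = 0.49 (permutation p = 0.15) with rho = 0.33 (permutation p = 0.347). Without 2 hearts these r were -0.40 and 0.20. With a rank-based measure of the trend, *Dcn* and *Lum* in control hearts gave r = -0.70 (permutation p = 0.0256) and rho = -0.77 (permutation p = 0.0123), and r was -0.58 without 2 hearts. None of the 16 coefficients computed (2 gene groups, 2 diets, 2 measures of the trend, r and rho) passed after adjustment over all of them (smallest adjusted p = 0.197).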

How the data were processed

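The authors deposited 1 table of raw read pair counts per gene for 20 mouse hearts. They aligned paired reads with STAR, removed duplicates with samtools and counted exons by gene name with featureCounts v1.4.5-p1 on the mm10 UCSC annotation, without using strand. The table also gives each gene's exonic length. Groups were taken from the sample labels, 10 control and 10 IDA, and pairs of hearts of 1 diet differed beyond sampling noise (chi-square per degree of freedom 1.496 to 15.004). The p-values of the diet comparisons set the difference between the diets against the spread between these hearts.

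Genes that reached 1 CPM in 10 or more hearts (13590 of 23420) were tested with edgeR 4.0.16 in R 4.3.3 (TMM factors, quasi-likelihood test on diet), and p-values were adjusted by Benjamini-Hochberg over all of them, with 0.05 as threshold. Log2 CPM values, used for the length trend, the components and the ratios, had a prior count of 2. The gene length correction enters each heart's loess curve (span 0.5) of log2 values on exonic length as an offset. It assumes that genes of a given length do not move together for another reason. Alternatives were DESeq2 1.42.0, other normalizations and filters, covariates, the replicate block and left-out hearts. Ratios were tested by permutation in numpy 2.4.6. Scripts were tested on simulated counts. Without a simulated length trend, 3.83% of the calls were false in edgeR and 4.35% in DESeq2. With a length trend that differed between the diets, 87.85% were false in edgeR as counted and 4.86% with the length correction. The simulation changed few genes, so these shares do not carry over to the real counts.

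The members and all gene lists were chosen with earlier results of these data known. Genes named were, for each member list, the 2 with the highest mean CPM and the 2 with the largest changes called in each direction, and for each pathway list the called gene with the largest change in each direction. Others were named, after their values were seen, to account for all members or to show how a list divided. Promoter sequences were from RefSeq (GRCm38.p6).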

Additional observations from a re-analysis of the deposited data

Results flagged for a closer look

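In the 52 tested members, the highest or lowest heart of each diet was compared with the others by Dixon's ratio of gap to range. Of 104 groups of 10 hearts examined, 16 exceeded its 95% critical value. Chance flags about 1 in 20 groups, and genes of the same hearts are not independent.

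Of the 16, 8 were the highest value of IDA heart 4. They were *Postn* with 333 CPM (next highest IDA heart 173), *Col8a1* with 150 CPM (next 81.6), *Col16a1* with 82.0 CPM (next 48.8), *Timp1* with 35.1 CPM (next 15.3), *Col4a4* with 26.8 CPM (next 17.9), *Col12a1* with 22.1 CPM (next 12.2), *Col8a2* with 13.5 CPM (next 8.24) and *Col9a2* with 6.24 CPM (next 2.07).

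A further 7 were the highest value of control heart 6. They were *Col3a1* with 533 CPM (next highest control heart 457), *Col15a1* with 336 CPM (next 290), *Col6a1* with 270.0 CPM (the next control heart lower), *Loxl2* with 94.2 CPM (next 62.3), *Col14a1* with 93.8 CPM (next 66.9), *Mmp14* with 76.6 CPM (next 62.7) and *Col16a1* with 52.5 CPM (next 36.5). The last was the lowest value of IDA heart 1 in *Col4a1*, with 685 CPM against 755 CPM in the next lowest IDA heart.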

How the results depend on the processing

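Depth limited the rarest members, and 10 collagens were not tested. Leaving out IDA hearts 3, 4 and 5, control heart 6 or IDA heart 4, and the runs of library numbers, were chosen after seeing the data. Where a value moved, the cause was not tested beyond what the setting itself changes.

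All genes called numbered 5906 in the higher run of library numbers and 2768 with an absolute log2 fold change of at least 0.5. Members called higher numbered 26 with the gene length correction, 19 with gene length and GC, 2 with erythroid markers as covariate, 2 in the higher run, 5 without IDA hearts 3, 4 and 5, 22 without them and with the length correction, 2 at the fold minimum, and 7 to 14 when a heart of each diet was left out. Calls lost with gene length and GC included *Sparc* (0.019), *Loxl1* (0.124) and *Col4a3* (-0.276). Members called lower numbered 4 with gene length and GC, 5 with the erythroid covariate and 20 without the 3 hearts. Pathway genes called higher numbered 10 in the higher run and 2 at the fold minimum. Pathway genes called lower numbered 12 with the length correction, 14 with length and GC, 14 without the 3 hearts and with the length correction, and 13 at the fold minimum.

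With replicate numbers as a block, 10 members were higher and 11 lower, and 8912 genes were called in all. Same-numbered hearts did not deviate together (correlations from -0.278 to 0.264), so the numbers do not pair the hearts. The block with the length correction gave 24 members higher and 12 pathway genes lower.

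Among genes called in the fit of the counts or in the alternative, the directions that reversed are given in the order length correction, length and GC, block with length, and length without the 3 hearts. They were 0.268, 0.159, 0.250 and 0.384 for *Col6a3*, 0.307, 0.264, 0.303 and 0.180 for *Fbn1*, 0.318, 0.343, 0.325 and 0.309 for *Col3a1*, 0.423, 0.258, 0.428 and 0.420 for *Col5a1*, and 0.522, 0.437, 0.489 and 0.304 for *Fn1*. *Col5a2* gave 0.335, 0.387 and 0.317 in the first 3. *Col15a1* gave 0.297, 0.295 and 0.347, and *Col27a1* 0.343 and 0.325, in those without GC. *Col11a2* was 0.455 with length and without the 3 hearts, *Postn* -0.254 without them, *Mmp14* -0.014 with length and GC, *Col5a3* -0.028 in the higher run and *Dcn* -0.065 with library size as covariate.

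Ratios no longer passed with the length correction for *Col1a1* to *Col1a2* (0.059), *Col6a3* to *Col6a1* (-0.047) and *Col5a1* to *Col1a1* (-0.033). In the higher run, where 5 against 3 hearts cannot give an exact p below 0.0179, none of the 6 passed after adjustment, with 0.059, -0.105, -0.043, -0.535, 0.235 and -0.255 in the order *Col1a1* to *Col1a2*, *Col3a1* to *Col1a1*, *Col4a1* to *Col4a2*, *Col6a3* to *Col6a1*, *Mmp2* to *Timp2* and *Col5a1* to *Col1a1*. Without the 2 hearts farthest from the median slope, r with the length trend was 0.443 and -0.175 for *Col1a1*, *Col1a2* and *Col3a1* and -0.403 and 0.202 for *Dcn* and *Lum*, in control and IDA hearts.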
